A study of Drosophila melanogaster with 6 samples.

Results

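Accessible chromatin was mapped by ATAC-seq in control wing imaginal discs of Drosophila melanogaster in which tub-Gal4 with tub-Gal80 drove GFP. Only the 2 libraries labelled GFP were used, out of the 6 libraries and 3 genotypes of the series, and no genotype was compared with another. A region was defined as an interval with a peak in both control lists after overlapping peaks were merged. This gave 29676 regions out of 41109 intervals found in either control list, against 45905 intervals over the lists of all 6 libraries. tub-Gal4 drives expression throughout the body from the promoter of the tubulin gene alphaTub84B, and Gal80 blocks Gal4. Each library was made from at least 30 discs. The larvae spent 7 days at 17 °C, which keeps Gal80 active, and the final 2 days at 31 °C. The controls therefore carried the driver, the temperature shift and a transgene, and are not untreated wild-type discs.

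The wing disc is an epithelial sheet that forms the wing blade, the hinge and the notum of the adult fly, with myoblasts and tracheal cells attached to it. The Tn5 transposase used in ATAC-seq cuts DNA where nucleosomes are sparse, so that promoters and enhancers appear as peaks of inserted adapters. Each peak comes with a fold enrichment, which is the signal at its summit divided by the local background that the peak caller estimated. Fold enrichment differed in scale between the libraries, so each peak was also given its percentile within its own list, where 100 is the strongest peak. In whole discs, a site open in a few cells and a site weakly open in many cells cannot be told apart. No read counts were analysed here, so the depth of each library is unknown.

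The strongest regions were short stretches just upstream of genes or inside introns, and 3 of them are shown here because they were among the first 5 in the ranking by mean percentile on the major chromosomes, with scaffolds and the Y chromosome left out. Each line gives 200 bp of the dm6 plus strand from the RefSeq Release 6 sequence, centred between the summits of both libraries, with capitals from the summit of one library to that of the other. The region at Cht2, a chitinase gene, ranked first on these chromosomes, with a fold enrichment of 27.5 in replicate 1 and 20.9 in replicate 2, and its summits lay 35 bp apart. The region in an intron of GATAd, a GATA-type transcription factor gene, had 26 and 20.3, and its summits lay 41 bp apart. The region 92 bp upstream of lncRNA:CR45939 had 23.8 and 20.7, and its summits lay 34 bp apart. None of the 8 motifs searched here occurred in these windows.
Cht2 chr3L:1755307-1755506: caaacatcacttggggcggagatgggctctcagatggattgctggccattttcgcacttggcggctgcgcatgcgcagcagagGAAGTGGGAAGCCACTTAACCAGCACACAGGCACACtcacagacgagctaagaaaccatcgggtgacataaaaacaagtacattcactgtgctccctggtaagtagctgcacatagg
GATAd chr2L:10335025-10335224: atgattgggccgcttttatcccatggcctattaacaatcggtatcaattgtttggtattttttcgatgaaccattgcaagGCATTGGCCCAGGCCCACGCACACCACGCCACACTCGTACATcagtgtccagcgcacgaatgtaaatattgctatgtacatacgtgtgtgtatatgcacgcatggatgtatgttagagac
lncRNA:CR45939 chr3L:18801304-18801503: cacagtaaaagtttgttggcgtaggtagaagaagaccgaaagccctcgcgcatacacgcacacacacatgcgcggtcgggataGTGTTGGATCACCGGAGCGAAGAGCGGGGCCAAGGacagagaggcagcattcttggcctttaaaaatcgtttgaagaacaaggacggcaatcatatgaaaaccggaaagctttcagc

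Some motifs were more frequent in these regions than across the genome, and a high-ranking region with each of 3 such motifs is given next, with the motif in capitals. The DRE motif (TATCGATA) is bound by DREF at promoters of growth genes. The region with it lay 78 bp upstream of Hers and had a fold enrichment of 18.5 in replicate 1 and 17.3 in replicate 2. The GAGA motif (GAGAGAG) is bound by GAGA factor, which keeps promoters free of nucleosomes. The region with it lay 164 bp upstream of lncRNA:CR45559 and had 22.7 and 17.4, and the motif stands on the minus strand. The Grainyhead motif (AACCGGTT) is bound by Grainyhead, a factor of epithelial cells. The region with it lay 136 bp upstream of eyg, a Pax gene of the notum, and had 20.1 and 18.5. The promoters of nub, a POU factor of the wing pouch, and sc, a proneural factor, are also shown with GAGA motifs in capitals, chosen after their values were seen. Overlapping matches form one run of capitals in nub and 2 runs in sc.
Hers chrX:19865968-19866167: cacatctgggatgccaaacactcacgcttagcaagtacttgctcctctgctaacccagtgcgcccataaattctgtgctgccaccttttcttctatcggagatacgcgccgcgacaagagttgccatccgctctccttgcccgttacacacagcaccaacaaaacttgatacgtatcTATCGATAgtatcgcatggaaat
lncRNA:CR45559 chr3R:6893526-6893725: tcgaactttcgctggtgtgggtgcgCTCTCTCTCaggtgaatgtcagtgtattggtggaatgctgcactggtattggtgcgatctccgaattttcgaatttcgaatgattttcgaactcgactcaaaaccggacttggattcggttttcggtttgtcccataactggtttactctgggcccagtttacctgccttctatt
eyg chr3L:12468057-12468256: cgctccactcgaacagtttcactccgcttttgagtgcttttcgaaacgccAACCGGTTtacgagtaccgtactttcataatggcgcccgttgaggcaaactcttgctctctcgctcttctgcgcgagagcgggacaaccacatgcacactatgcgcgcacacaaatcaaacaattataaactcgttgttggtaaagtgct
nub chr2L:12618119-12618318: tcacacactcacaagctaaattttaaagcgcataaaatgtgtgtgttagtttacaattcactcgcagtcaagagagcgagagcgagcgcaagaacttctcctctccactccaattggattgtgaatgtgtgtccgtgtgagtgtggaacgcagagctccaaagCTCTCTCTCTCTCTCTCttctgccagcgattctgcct
sc chrX:395843-396042: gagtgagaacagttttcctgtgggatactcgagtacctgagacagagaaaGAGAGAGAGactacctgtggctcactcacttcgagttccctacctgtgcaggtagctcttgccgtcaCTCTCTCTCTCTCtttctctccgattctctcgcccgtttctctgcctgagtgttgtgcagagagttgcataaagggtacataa

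The motif shares were counted in 200-bp windows, on both strands, for the 29363 regions on the major chromosomes. GAGAGAG occurred in 18.6% of the 500 strongest regions, 12.9% of regions near 5′ ends and 5.94% of all regions, against 2.65% of genomic windows of the same length that held no exon. AACCGGTT occurred in 3.6% of the strongest regions and 0.848% of all regions, against 0.196% of exon-free windows. TATCGATA occurred in 3.2% of the strongest regions and 3.0% of those near 5′ ends, against 0.484% of exon-free windows, while its share over all regions was 0.623%. When regions were ranked by −log10 p, the strongest set had TATCGATA in 0.8%, CATTCC in 11.4% and TAATTA in 1.0%. The E-box CACGTG occurred in 5.4% of the strongest regions and 3.72% of all regions, against 2.24% of exon-free windows. The AP-1 motif TGANTCA had shares of 6.0%, 4.19% and 4.11% in the same order, and the Scalloped motif CATTCC had 7.8%, 11.9% and 9.51%, so that the strongest set lay below the exon-free windows by fold enrichment and above them by −log10 p. The AT-rich motifs ran the other way. The TATA box motif TATAAA occurred in 6.4% of the strongest and 7.22% of all regions, against 23.9% of exon-free windows, and the homeodomain motif TAATTA in 3.2% and 5.79%, against 14.5%. The base composition differed too, with 48.4% G and C in the regions, against 39.9% outside exons, and its part in these shares was not tested. A match is a run of letters and no evidence of binding.

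The replicates found most of the same regions, and nearly all of the strong ones. Replicate 1 had 36715 peaks and replicate 2 had 35404. A peak of replicate 2 overlapped 83.9% of the peaks of replicate 1, and 84.4% of the peaks of replicate 2 were found in replicate 1. Another 5907 intervals were in replicate 1 alone and 5526 in replicate 2 alone. The bases covered by both lists were 0.654 of the bases covered by either (Jaccard index). In the weakest 10% of each list, 53.6% of replicate 1 peaks and 63.6% of replicate 2 peaks were found in the other list, and in the strongest 10% the shares were 98.7% and 97.4%. Peaks found in both lists had a median fold enrichment of 3.86 in replicate 1 and 3.27 in replicate 2, against 2.67 and 2.45 for peaks found in 1 list. They were also wider, with medians of 382 bp and 408 bp, against 220 bp and 233 bp.

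**Figure D1:**
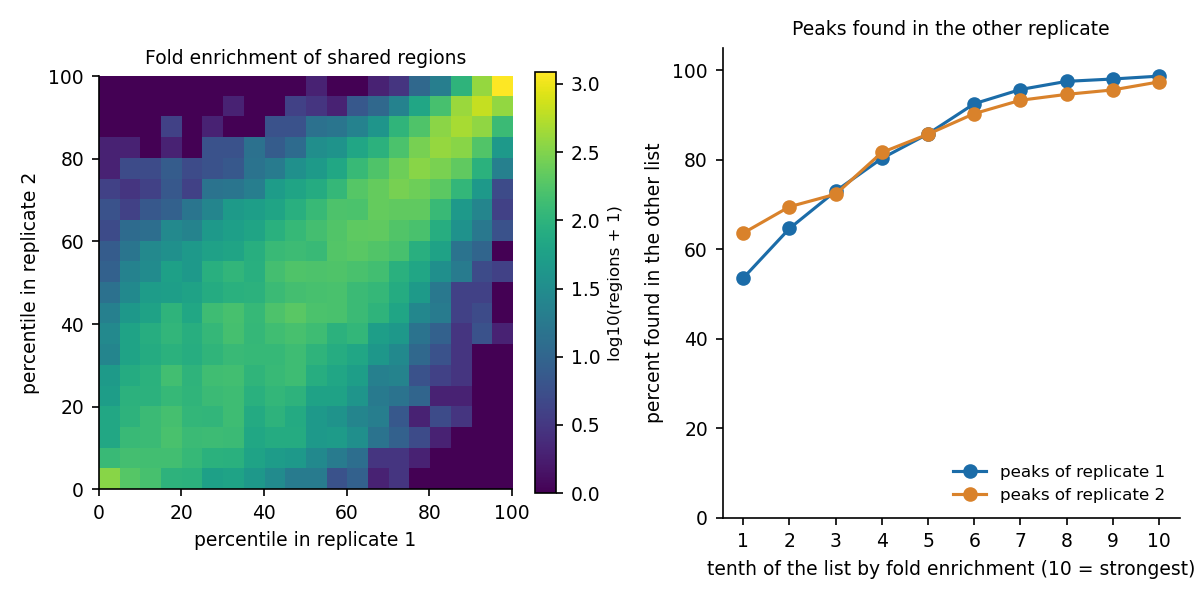
Agreement of the control libraries. Left, percentile of fold enrichment in replicate 1 (x axis) and replicate 2 (y axis) of the 29676 shared regions, coloured by log10 of the number of regions plus 1 in squares of 5 by 5 points. Right, percent of the peaks of each replicate found in the other list (y axis) by strength in steps of 10% of the list (x axis), which runs from 53.6% and 63.6% in the weakest step to 98.7% and 97.4% in the strongest.

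The order of the regions was similar in both libraries. Across the 29676 regions, percentiles had a Spearman correlation of 0.835 and a Pearson correlation of 0.822, given as a description because regions of 1 library share its depth and are not replicates. Fold enrichment was higher in replicate 1 in 76.8% of the regions, with a median ratio of 1.17 of replicate 1 to replicate 2. The summits lay a median of 45 bp apart, and 54.0% lay within 50 bp. The percentiles of a region differed by a median of 8.88 points between replicates, and by 3.29 points where the mean percentile was 80 or more. The median was 7.77 points for means up to 20 and 16.5 points for means from 20 to 40. A mean near either end of the scale leaves little room for a difference, so these values are no measure of better agreement there. A single peak of each list formed 95.7% of the regions. Replicate 1 had more peaks than replicate 2 in 1072 of the others and replicate 2 had more in 175, so a region broken into several peaks was more common in replicate 1.

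A small set of regions differed widely. The percentiles were over 50 points apart in 252 regions. The widest difference was upstream of CG3587 on X, with a fold enrichment of 2.06 in replicate 1 and 5.47 in replicate 2. An intron of CG4928 had 2.15 and 4.58, and the promoter of Act42A, a cytoplasmic actin gene, had 2.55 and 6.11. The opposite order was seen in an intron of Dsp1, an HMG-box gene, with 5.33 and 2.02, and near a 5′ end of ed, a cell adhesion gene, with 6.81 and 2.28. Few strong peaks were missing from the other list. Of peaks above percentile 90, 49 of 3659 in replicate 1 and 93 of 3541 in replicate 2 had no counterpart. On the chromosome arms, 43 of these 49 and 80 of the corresponding 92 lay within 500 bp of a 5′ end, and 31 and 54 were under 250 bp wide. The strongest were at CG4119 (19.4), wuho (16.9) and CG12236 (15.9) in replicate 1, all on X, and at hpo (15.1), CG3625 (15.0) and CG13850 (12.4) in replicate 2, with summits 40 to 53 bp upstream of the 5′ end. They were narrow, from 171 to 370 bp.

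Regions were spread over all major chromosomes, with fewer on X and chromosome 4. The density was 232 regions per Mb on 2L, 224 on 2R, 220 on 3L, 229 on 3R, 195 on X and 103 on chromosome 4. Chromosome 4 also differed between the libraries, with 158 peaks in replicate 1 and 196 in replicate 2, of which 93.0% and 71.9% were found in the other list. Its 139 regions were strong, with a median percentile of 74.1. The Y chromosome held 14 regions, and 299 were on 187 unplaced or unlocalised scaffolds and were left out of what follows. The 29363 regions on 2L, 2R, 3L, 3R, X and 4 are described from here on.

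Exons were almost free of peaks. Regions covered 1.16% of exon bases, against 11.7% of all bases and 15.6% of bases outside exons. The value was 0.596% in coding sequence, 5.14% in 5′ UTRs and 0.0428% in 3′ UTRs. Both lists showed it alike, with 1.14% of exon bases covered in replicate 1 and 1.11% in replicate 2. In 11745 coding exons of 600 bp or more, after 100 bp were taken off each end, regions covered 987 of 11969326 bases. At the start of these exons the covered share was 3.26% at 100 bp before the exon, 0.477% at its first base and 0.00851% at 50 bp inside. Peak ends gathered at exon borders. Of the ends near an exon border, 3160 in replicate 1 and 3205 in replicate 2 lay in the first 40 bp inside the exon, against 435 and 361 in the next 40 bp and 1948 and 2052 in the last 40 bp outside it. The lists therefore hold little on accessibility within exons. The methods name a filter for blacklisted regions without naming the regions, the peaks are numbered without a gap, and the cause was not tested.

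**Figure D2:**
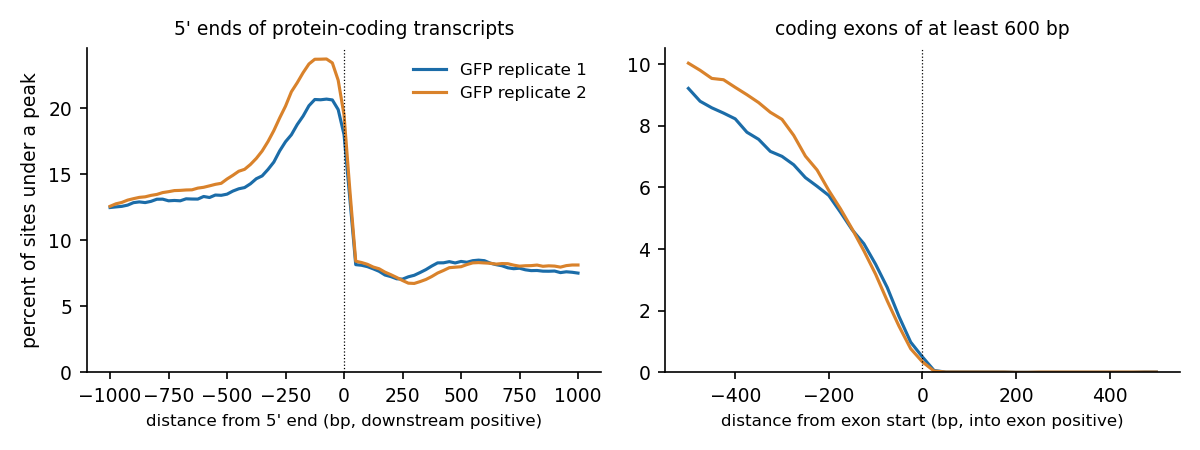
Peak coverage around 5′ ends of 19252 protein-coding transcripts (left) and around the starts of 11745 coding exons of at least 600 bp (right). The x axes give the distance in bp and the y axes the percent of sites under a peak of GFP replicate 1 (blue) or replicate 2 (orange). Coverage is highest just upstream of the 5′ end and falls to 0.00851% of sites at 50 bp inside coding exons in both lists. The first exon starts at the 5′ end, so the lower coverage downstream is no measure of accessibility there.

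Around the 5′ ends of protein-coding transcripts, coverage stood on the upstream side. It was highest 82 bp upstream, where a region covered 21.2% of the 19252 ends, and was 18.3% at the end itself, 8.22% at 100 bp downstream and 13.0% at 1000 bp upstream. The summits followed the same pattern, with 2592 regions in the 250 bp upstream of the nearest such end and 351 in the 250 bp downstream. The first exon starts at the 5′ end, and exons in these lists were almost free of peaks. The difference between the sides is therefore no measure of where accessibility lies around a 5′ end. The share of genes with a region moved with the exon content within 500 bp of the 5′ end. Among genes whose 5′ window was under 20% exon, 60.3% had a region, and the share was 46.5%, 30.7%, 20.2% and 7.79% in the following classes of 20 points.

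Most regions were in introns and between genes, and most of the strongest were at 5′ ends. Introns held 51.1% of the regions, against 39.5% of the bases, and intergenic sequence held 32.8%, against 27.2%. The stretch within 500 bp of an annotated 5′ end held 15.8%, or 4640 regions, against 13.6% of bases. Coding exons held 58 regions (0.198%), against 13.7% of bases, 5′ UTRs held 4, 3′ UTRs 1 and non-coding exons 39. Exons count among the bases but held almost no regions, which raises the region shares of introns and intergenic sequence above their base shares. The excess in these classes is therefore no measure of a preference for either. Replicate 1 alone gave 15.2% of peaks near a 5′ end and replicate 2 gave 15.7%. Regions near a 5′ end had a median percentile of 82.5, against 51.3 in introns and 49.4 between genes. Their share grew from 3.96% of regions with a mean percentile under 20 to 38.3% of those at 80 or above, and it was 64.4% of the 500 strongest, of which 134 were in introns and 43 between genes. Far sites were common all the same. The median distance to the nearest 5′ end was 3096 bp, 36.8% of regions lay over 5 kb away and 1865 lay over 20 kb away.

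**Figure D3:**
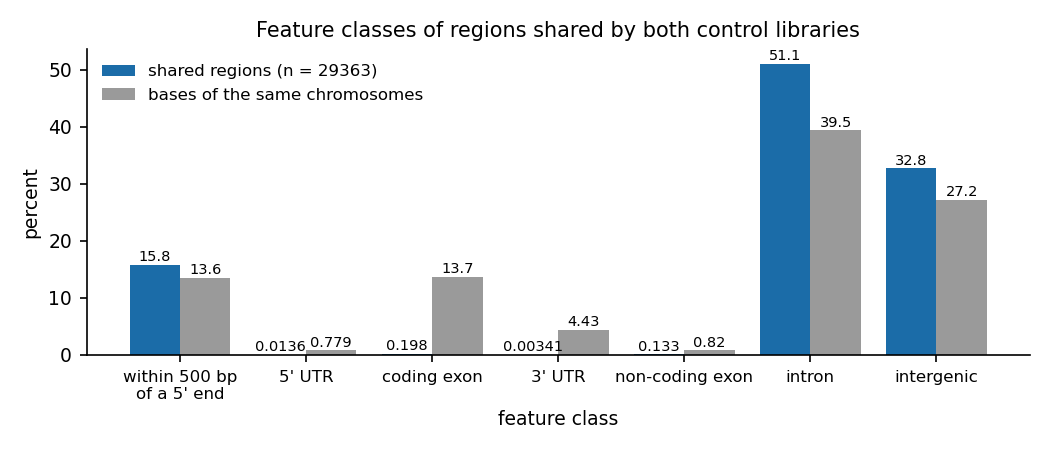
Feature classes of the 29363 shared regions on 2L, 2R, 3L, 3R, X and 4 (blue) and of the bases of these chromosomes (grey), in percent (y axis) by class (x axis). Introns hold 51.1% of regions, coding exons 0.198% of regions against 13.7% of bases. The bases include exons, which hold almost no regions, so the excess in introns and intergenic sequence is no measure of a preference.

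Regions were short and often grouped. Over all 29676 regions, with those on Y and scaffolds, the median width was 456 bp (quartiles 334 and 645), over a range from 169 to 3331 bp, and 7.33% were wider than 1 kb. These 29676 regions covered 15.9 Mb. On the arms, the median gap between neighbours was 1961 bp (quartiles 696 and 4759), and 32.7% of the gaps were under 1 kb. Gaps over 20 kb numbered 639 and made up 17.9% of the arms. Stronger regions were somewhat wider, with a Spearman correlation of 0.352 across all 29676 regions. Repeats were under-represented, with 10.9% of region bases soft-masked in the reference, against 20.1% of the arms. The arms include exons, which held almost no regions, and how well reads could be placed in repeats was not examined.

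The widest regions were not the strongest. The first was intergenic, at 2R 4611215 to 4614545, with a mean percentile of 68.5, and was called as 4 peaks in replicate 1 and 1 peak in replicate 2. The next was intergenic on 3L and 3171 bp wide. An intron of Unc-76, an axonal transport gene, held a region of 3160 bp, an intron of DIP-lambda, an immunoglobulin family gene, one of 3093 bp, and overlapping introns of CG3655 and lncRNA:CR44779 one of 3002 bp, with a mean percentile of 90.5. The longest stretches without a region and without an assembly gap were near centromeres. The first 3 were on 3R inside Myo81F, a very long gene of pericentromeric chromatin, with 255 kb, 193 kb and 186 kb. They held 0 peaks of replicate 1 each, and 8, 2 and 6 peaks of replicate 2. Another on 2R was 172 kb long and the fifth, again on 3R in Myo81F, was 162 kb long.

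The 10 strongest regions on the arms were near 5′ ends in 8 cases. Besides Cht2, GATAd and lncRNA:CR45939, they lay upstream of snoRNA:Psi18S-176 (24.2 in replicate 1 and 24.9 in replicate 2), lncRNA:CR45267 (23.6 and 22.7), pb (22.6 and 20.4), fkh (21.6 and 22.3), CG5087 (21.8 and 19.7), D19B (27.1 and 17.3) and dap (21.7 and 18.7). pb is a Hox gene of the mouthparts, fkh encodes a forkhead factor of the gut and salivary gland, and dap, whose region was 730 bp upstream, encodes an inhibitor of cyclin-dependent kinase. Their order depended on the measure. By −log10 p, 2 of the 10 stayed among the 10 strongest, all had mean percentiles of 99.4 or above, and the lowest ranked 93. By replicate 2 alone 6 stayed and by replicate 1 alone 2 stayed.

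Long genes collected the most regions. kirre, a cell adhesion gene of myoblast fusion, had 83 regions in its 394 kb with 1 kb on each side, SKIP had 71, and the RNA-binding protein genes heph, bru3, pum and mbl had 70, 65, 63 and 62. lncRNA:CR32773 had 62, Ten-a and lncRNA:CR44357 had 57 each, CG32816 had 50, sick had 48 and Sema1a, a guidance cue gene, had 46. Most of these regions were intronic, as in kirre with 74 of 83 and SKIP with 71 of 71. A region in overlapping genes counted for each, so a count can include regions of other genes inside the span. The span of lncRNA:CR32773 holds bi, with 19 regions, and that of CG32816 holds ac and sc. Across protein-coding genes, the number of regions and gene length had a Spearman correlation of 0.552. Density gave other genes. Among 2034 protein-coding genes of at least 10 kb, the median was 2.45 regions per 10 kb (quartiles 1.54 and 3.3), and the densest were wun, a lipid phosphatase gene guiding germ cells (6.70), HmgZ (6.47), Fkbp14 (6.27), Lerp (6.18) and CG15249 (5.88). No region was found in 6214 of 13945 protein-coding genes (44.6%), and 556 had 10 or more.

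Genes that pattern the wing disc nearly all had an open region at a 5′ end. A region lay within 500 bp of a 5′ end in 39 of the 43 wing disc patterning genes measured, against 29.3% of all protein-coding genes, or 4086 of 13945. The list held 44 genes, and Dl was not matched by name and not measured. The median percentile of the best region per gene was 94.9, against 86.1 over all protein-coding genes with such a region, and 28 of the 39 lay above 90. The exonic share of the 5′ window had the same median in the list as in all genes, but its spread differed. In the list, N, ci and hth alone had a share above 60%. Of all 13945 genes, 3185 were in the class from 60 to 80% and 1809 in that from 80 to 100%. In those classes 20.2% and 7.79% had a region, and the list was not set against genes of like exon content. Of the genes without such a region, Dad, aos, ci and inv, each still had 1 to 12 regions in the gene. The list had a median of 16 regions within 20 kb of a gene, against 9 for all protein-coding genes. This count includes the gene itself and was not adjusted for gene length. The values describe these genes and no test was made over the list.

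Of the ligand genes, 6 of 7 had a region, aos being the one without. wg, the Wnt ligand of the wing margin, had a fold enrichment of 10.5 in replicate 1 and 11.6 in replicate 2. dpp, the BMP ligand, had 10.4 and 6.80, vn, a ligand of the EGF receptor, had 8.23 and 13.0, and upd1, a ligand of the JAK/STAT pathway, had 6.92 and 7.80. hh, the Hedgehog ligand of the posterior compartment, had 5.17 and 6.48, and Ser, a ligand of Notch, had 6.18 and 6.08. Receptors and other signalling genes had one in 5 of 7 cases, ci and Dad being without. N, the Notch receptor, had 9.25 and 4.98, tkv, the Dpp receptor, had 7.62 and 4.48, and ptc, the Hedgehog receptor, had 4.55 and 3.72. fng, which modifies Notch, had 5.92 and 4.78, while rho, the protease that releases EGF receptor ligands, had 14.3 and 12.5. Values of rho exceeded those of the other signalling genes in replicate 1, and in replicate 2 it came second to vn.

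Transcription factors of the wing pouch had a region in 12 of 12 cases. vg, the selector of wing fate, had 13.4 and 10.4 in replicates 1 and 2, its partner sd had 9.83 and 13.9, and nub had 10.6 and 13.1. ct, a factor of the margin, had 11.9 and 9.82, kn 10.9 and 9.13, salr 9.74 and 10.3, salm 7.44 and 7.54, and Dll 7.1 and 10.2. bi and brk, whose expression is set by Dpp, had 6.36 and 8.43, and 5.42 and 8.31. rn had 5.44 and 4.91. bs, the serum response factor of intervein cells, was the lowest with 4.27 and 2.81, and its percentiles of 64.4 and 39.5 were the farthest apart in the list. Of the compartment genes, 2 of 3 had a region. ap, the selector of the dorsal compartment, had 13.4 and 12.8, and en, the selector of the posterior compartment, 9.35 and 9.97.

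The notum and hinge genes had a region in 11 of 11 cases, with mean percentiles from 77.0 for mirr to 99.8 for eyg. tup had 10.5 in replicate 1 and 16.0 in replicate 2, tsh 11.3 and 10.8, pnr 10.5 and 7.31, and hth, a homeobox gene of the hinge, 8.13 and 11.9. hth also had the most regions in the list, 43 over 132 kb. The T-box genes Doc1, Doc2 and Doc3 had 11.9 and 9.96, 10.5 and 10.7, and 7.38 and 11.3. The Iroquois genes ara, caup and mirr had 7.88 and 8.73, 8.91 and 9.67, and 5.11 and 4.68. The proneural genes ac and sc had 11.1 and 10.6, and 12.9 and 18.9, and sens, a zinc finger gene of sensory precursors, had 8.34 and 10.2. These replicate pairs differed by a median of 3.41 points in percentile over the 39 genes.

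**Figure D4:**
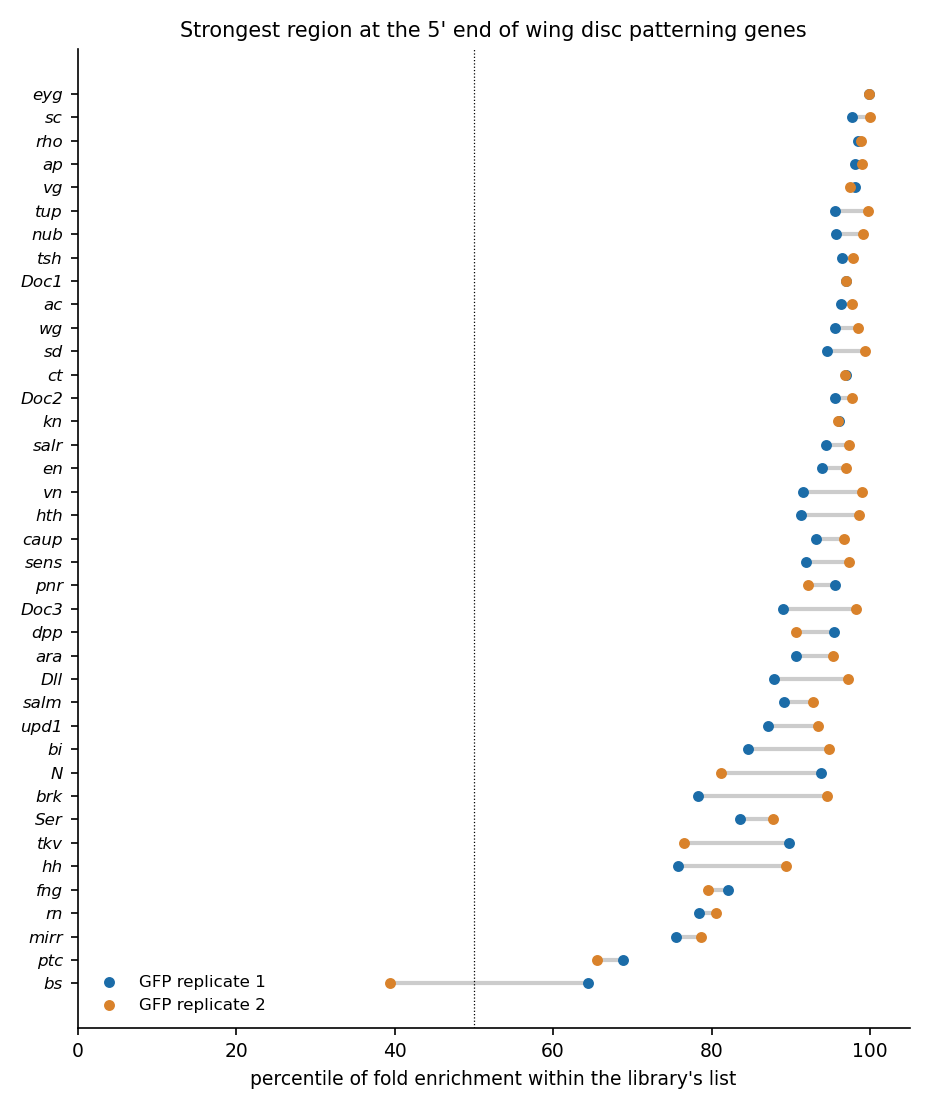
Percentile of fold enrichment (x axis) of the strongest region at the 5′ end of the 39 wing disc patterning genes that had one (y axis), in GFP replicate 1 (blue) and replicate 2 (orange). The grey bar joins the replicates, and the genes run from eyg, with a mean of 99.8, to bs, with 51.9.

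The Hox genes, which set segment identity, had a region at a 5′ end in 8 of 8 cases, against 29.3% of all protein-coding genes. Their 5′ windows were from 43.7% (Scr) to 50.05% exon. In the class from 40 to 60%, 30.7% of all genes had a region. The 8 include genes best known outside the segments that bear wings and halteres. abd-A, of the abdomen, had 18.3 in replicate 1 and 15.9 in replicate 2, Dfd, of the head, 17.9 and 17.5, Scr 14.6 and 15.1, Abd-B 13.8 and 14.2, and lab 11.6 and 12.7. Antp, the gene of the second thoracic segment, and Ubx, which sets haltere identity, had the lowest mean percentiles of the 8, 92.4 and 94.8, with 7.63 and 8.54, and 8.79 and 9.76. Antp had the most regions, 33, and abd-A 2.

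Markers of other cell types were read against the same 29.3%. Fat body markers had a region at a 5′ end in 0 of 8 genes and germline markers in 0 of 9, with no peak there in either list. Haemocyte markers had one in 1 of 6, the GATA factor gene srp, with He, Hml, NimC1, Pxn and eater lacking one, and the odorant and gustatory receptors in 7 of 119. Disc myoblast markers had one in 5 of 6, with a median percentile of 81.0, against 86.1 over all genes with one: stumps had 6.55 and 6.61, Mef2 6.27 and 4.61, Him 5.74 and 5.26, zfh1 5.04 and 4.25, and htl 3.77 and 4.19. twi, the factor that specifies mesoderm, had none there and 24 regions in the gene with 1 kb on each side. Of the tracheal markers btl had one (5.50 and 4.28) and trh none. The 5′ windows of twi and trh were 96.1% and 100% exon, a class in which 7.79% of all genes had a region. The lack of a region at twi and trh therefore says little about these cell types. Neuronal markers had weak ones in 4 of 10, with mean percentiles from 5.31 for brp to 58.1 for cac. Muscle structural genes had one in 4 of 8. The median exonic share of the 5′ window was 17.2% in the neuronal list and 17.4% in the muscle list. Members ran from 3.80% for para to 78.4% for cac, and from 6.79% for Mlc2 to 33.2% for Mhc. Over all genes, 60.3% of those with a share under 20% had a region, and 7.79% of those from 80 to 100%. The neuronal members span several such classes, so their count cannot be set against the share of 1 class. The muscle members fall in the class under 20% and in that from 20 to 40%, where 46.5% of all genes had a region. Their 4 of 8 (50%) lay between the shares of these classes. Myoblasts are part of the dissected disc, and the share of cells of each type was not measured.

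Housekeeping genes were read in the same way. Cytosolic ribosomal protein genes had one at a 5′ end in 42 of 85, with a median percentile of 92.7. Cell cycle genes had one in 11 of 26, with a median exonic share of the window of 58.1%. CycB3 had 21.3 in replicate 1 and 10.7 in replicate 2, polo, a mitotic kinase, 13.9 and 9.61, CycB 11.7 and 8.90, and stg, the Cdc25 phosphatase, 8.05 and 9.49. dpa, a subunit of the replicative helicase, had 8.89 and 5.57. In replicate 1 the summit at dpa was not within 500 bp of the 5′ end, and the averaged position lay 486 bp upstream. No such region was found at 15 genes, among them the replication genes PCNA, Mcm2, Mcm3, Mcm5, Mcm6 and Mcm7 and the mitotic genes CycA, aurA, aurB, fzy and Cdk1. Of these 15, Cdk1 and Mcm5 had a peak there in replicate 2 alone. The median exonic share of the window was 52.5% in cell cycle genes with a region and 58.6% in those without. PCNA (81.2%), fzy (72.7%) and Mcm7 (63.7%) lay in classes in which 7.79% or 20.2% of all genes had a region. The lack of a region at these 3 genes therefore says little about their promoters. CycA and Mcm2 had shares of 50.05%, while Dp, polo and dpa had a region with shares of 99.5%, 85.8% and 80.5%. Apoptosis genes had one in 5 of 10, with a median exonic share of the window of 50.05%, against 69.7% in those without. Of those without, p53 and Dcp-1 had 100% and Drice 69.7%, so the lack of a region there says little about their promoters. The share was 50.05% at hid and grim, and Dronc had a region with 77.6%. Dark and Dronc, of the apoptosome, had 15.7 and 9.18, and 11.6 and 8.63, Diap1 had 6.25 and 6.08, rpr 5.91 and 4.51, and skl 3.39 and 3.06. In replicate 1 the summit at Dark was not within 500 bp of the 5′ end, and the averaged position lay 469 bp downstream. At the 5′ end of hid the peak was in replicate 2 alone, and at grim in replicate 1 alone.

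**Figure D5:**
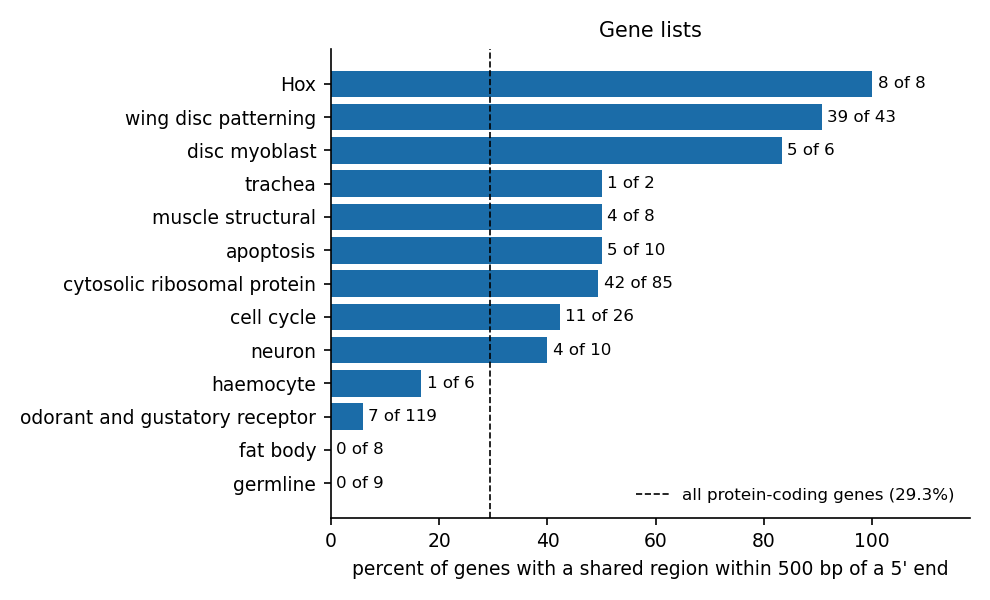
Percent of the genes in each of the 13 lists (y axis) with a shared region within 500 bp of an annotated 5′ end (x axis), with the counts beside the bars. The dashed line marks all protein-coding genes at 29.3%, and the wing disc patterning list stands at 39 of 43.

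The promoter of alphaTub84B had 10.6 and 7.98 in replicates 1 and 2, and that of w, the eye colour gene, 11.4 and 8.51. Fly drivers and transgenes often carry copies of these sequences, and reads from the genes and from the constructs cannot be told apart.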

How the data were processed

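ATAC-seq was performed on wing discs of 3 genotypes with 2 libraries each, and the 2 GFP libraries were used here. The other 4 lists served only to count all merged intervals. With the nf-core/atacseq pipeline, the authors mapped reads by BWA-MEM to the dm6 genome, filtered out blacklisted regions and ran MACS2 on each library separately. The peak cutoff is not given in the sources used here. The deposited fold enrichment is a ratio over the local background, and the deposited −log10 p and −log10 q are those of MACS2. The deposited score is −log10 q multiplied by 10 and made whole. Counts, to which DESeq2 was applied in the study, were not used here.

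Peaks overlapping by at least 1 bp were merged, and a region took the highest percentile of its peaks in each list, which were then averaged. The summits of both lists were averaged to place a region. Feature classes came from the Ensembl 115 annotation (BDGP6.54), in the order 5′ end within 500 bp, 5′ UTR, coding exon, 3′ UTR, non-coding exon, intron and intergenic. Genes were given 1 kb on each side for counts of regions, and a region in overlapping genes counted for each. Chromosome lengths of the RefSeq Release 6 sequence equalled those of dm6. The members, the 13 gene lists and the 8 motifs were chosen with earlier results of these data known. Listed genes that were not matched by name, Dl, nos and dys, were left out. Patterning genes and rpr, hid and grim could all be named. Otherwise names went to the 12 genes with most regions, the 5 densest, the 10 strongest and 5 widest regions, the 5 longest gaps, the 5 regions that differed most and the 3 strongest peaks per list without a counterpart. Members of the other lists were named as examples after their values were seen. With 2 libraries, no test was made. The code, in Python 3.11.15 with NumPy 2.4.6, pandas 2.3.3 and SciPy 1.17.1, was tested on simulated lists.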

Additional observations from a re-analysis of the deposited data

How the results depend on the processing

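No paired analysis was possible because the descriptions rest on 1 group and no test. Of 102 values under alternatives, 57 stayed within the spread between lists or within 1.5 times a count and 45 moved. The number of shared regions moved little. A minimum −log10 q of 5 gave 82.0% of replicate 1 peaks and 85.2% of replicate 2 peaks found, a required overlap of 0.5 of the shorter of 2 peaks 83.1% and 83.7%, and equal numbers of peaks 85.2% and 82.8%. Ranking by −log10 p gave a Spearman correlation of 0.857. The share near 5′ ends was 16.9% with the minimum of 5, 10.9% with a window of 250 bp, 25.1% with 1 kb, and 14.3% with the ends of protein-coding genes alone, an alternative chosen after seeing the data. The coding exon share was 0.235% with 250 bp and 0.453% with the middle of the region in place of the summit. The median gap was 2211 bp with the minimum of 5. The share of protein-coding genes with a region was 28.5% with that minimum, 21.1% with 250 bp and 41.8% with 1 kb.

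Single lists gave median widths of 349 to 373 bp, median gaps of 1536 to 1679 bp, 15.2 to 15.7% of peaks near 5′ ends, 0.134 to 0.187% in coding exons and 33.9 to 34.8% of protein-coding genes with a peak. Depth is unknown, so a region in 1 list may have been below the limit of detection in the other, and 2 libraries allow no test of spread.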
